A study of Mus musculus with 30 samples.

Results

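SWI/SNF subunits were followed in fibroblasts driven towards muscle by MyoD. Mouse SWI/SNF complexes move or evict nucleosomes with the energy of ATP. A typical complex, though not every form, carries 1 of 2 alternative ATPases (Smarca4, also called BRG1, or Smarca2, also called BRM), a common core (Smarcb1, Smarcc1, Smarcc2), the DNA-binding subunit Smarce1 and 1 of 3 alternative Smarcd proteins. In muscle cells the Smarcd proteins are known as a contact between the complex and MyoD, and Smarcd3 is the family member known for its role in heart and skeletal muscle. Members were all probe sets that the platform annotation assigned to the 9 symbols Smarcd1, Smarcd2, Smarcd3, Smarca2, Smarca4, Smarcb1, Smarcc1, Smarcc2 and Smarce1. This gave 21 of the 45037 probe sets tested, and 9 of 18193 genes.

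The series held 30 arrays hybridised with biotin-labelled total RNA, 3 in each of 10 groups. All groups were mouse embryonic fibroblasts of MyoD-/-/Myf5-/- animals, so the control cells lacked both of these muscle regulators too. In ER-MyoD wt cells the virus encoded wild-type mouse MyoD fused to the hormone-binding domain of the estrogen receptor, and beta-estradiol was in the differentiation medium for 0, 6, 12 or 24 h before sampling. ER-MyoD RRR cells carried the same fusion with lysines 99, 102 and 104 mutated, which removes these acetylation sites, and were sampled at 6, 12 and 24 h. Empty-retrovirus cells, the negative control, were sampled at 6, 12 and 24 h. Zero-hour samples of these last cells and of ER-MyoD RRR were not analysed here, so changes from 0 h exist for ER-MyoD wt alone and hold medium, hormone and MyoD together. Constructs were compared at matching times, as a comparison planned within the same medium. Because MyoD was supplied by a viral fusion protein, its level was not under the control of its own gene. The labels do not say whether the 3 arrays of a group came from separate cultures, and the p-values speak only of the spread among these arrays, which may be technical.

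The arrays bore out their labels. Myog, an early target of MyoD, had a deposited signal of 6113 ± 72.8 (SD, n = 3) in ER-MyoD wt and 3884 ± 516 in ER-MyoD RRR at 24 h, against 15.0 ± 1.94 in empty-retrovirus cells. Myod1 lay between 471 and 1185 in the 7 group means with a fusion and between 167 and 228 in the 3 without. At 6, 12 and 24 h its signal was 897 ± 200, 802 ± 303 and 612 ± 149 in ER-MyoD wt. In ER-MyoD RRR it was 863 ± 479, 535 ± 264 and 471 ± 146. The part of this difference in level in the comparisons of the MyoD forms was not tested. Of 8 fibroblast markers 7 were measured, and Col1a1, Col1a2, Col3a1, Dcn and Thy1 exceeded the array median in all 30 arrays, Pdgfra in 28 and Lum in 15. Markers of other cell types were mixed. Of the blood markers Csf1r exceeded it in 30 arrays, Adgre1 in 29, Lyz2 in 27, Cd68 in 20, Tyrobp in 4 and Ptprc in 0. Of the endothelial ones Kdr did in 25, Cdh5 in 10, and Pecam1 and Tek in 0. Of the epithelial ones Epcam did in 30, Krt8 in 26, Krt18 in 18 and Cdh1 in 4. Of the neuronal and glial ones Gfap did in 25, Tubb3 in 21, Map2 in 10 and Snap25 in 0, and of 2 neural subunits Dpf1 did in 7 and Actl6b in 0. The part of other cell types in the results was not tested. Median signals ran from 38.0 to 64.1 at a common trimmed mean of 150, and 22 of 30 arrays correlated best with their own group. The 3 arrays that correlated least with their own group were ER-MyoD RRR 6 h replicate 2, which also had the highest 3'/5' signal ratio for Gapdh (2.44) and Actb (3.61), empty retrovirus 12 h replicate 1 and ER-MyoD wt 24 h replicate 3.

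The DNA before the Smarcd genes is shown first, because MyoD binds E-boxes (CANNTG) and the results turn on these 3 genes. Each sequence is the 300 bases from 250 before to 50 after a RefSeq start site (GRCm38.p6), written 5' to 3' on the gene's strand, with every CANNTG in capitals. The motif is its own reverse complement as a class, so both strands are covered. The Smarcd1 window is chr15:99702037-99702336, plus strand. The Smarcd2 window is chr11:106267583-106267882, minus strand. The Smarcd3 window is chr5:24601953-24602252, minus strand. For Smarcd2 and Smarcd3 the start lies inside the annotated gene span, so other promoters of these genes exist that are not shown.
Smarcd1: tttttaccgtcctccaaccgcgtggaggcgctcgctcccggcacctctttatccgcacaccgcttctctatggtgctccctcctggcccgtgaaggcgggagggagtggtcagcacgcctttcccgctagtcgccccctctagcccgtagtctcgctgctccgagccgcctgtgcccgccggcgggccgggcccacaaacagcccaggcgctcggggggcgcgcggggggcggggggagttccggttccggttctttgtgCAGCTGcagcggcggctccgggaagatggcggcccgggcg
Smarcd2: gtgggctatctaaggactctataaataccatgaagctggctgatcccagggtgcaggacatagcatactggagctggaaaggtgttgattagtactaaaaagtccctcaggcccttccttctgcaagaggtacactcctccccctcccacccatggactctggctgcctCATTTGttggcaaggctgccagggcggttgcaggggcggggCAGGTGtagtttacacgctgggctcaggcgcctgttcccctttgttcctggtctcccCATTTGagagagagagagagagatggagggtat
Smarcd3: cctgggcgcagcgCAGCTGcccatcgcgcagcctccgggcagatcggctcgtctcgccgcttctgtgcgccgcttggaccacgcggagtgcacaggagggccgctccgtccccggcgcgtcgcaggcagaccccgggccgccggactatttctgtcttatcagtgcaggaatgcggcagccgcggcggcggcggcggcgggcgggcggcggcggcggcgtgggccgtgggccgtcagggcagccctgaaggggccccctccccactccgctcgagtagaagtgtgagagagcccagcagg
Smarcd1 and Smarcd3 each held 1 E-box, of the form CAGCTG. It began at 11 in Smarcd1 and at -237 in Smarcd3, with the start site counted as +1 and no base 0. Smarcd2 held 3 E-boxes, CATTTG at -81, CAGGTG at -40 and CATTTG at 18. Of 32851 RefSeq promoters of this length 72.3% held at least 1 CANNTG, 17.6% at least 3 and 16.3% at least 1 CAGCTG. RefSeq promoters matched 8 of the 9 members. Smarca2, Smarca4 and Smarcc1 held 1 CANNTG each, Smarcb1 and Smarcc2 held 0, and Smarce1 was not matched. A match in these letters is not evidence of binding, and the arrays do not measure binding.

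Most member genes varied among the 10 groups. Values below are normalised log2 levels, log2(quantile-normalised signal + 16), unless a deposited signal is named, and differences are on that log2 scale, which understates changes of dim probe sets. A probe set passed at an adjusted p under 0.05 (limma, Benjamini-Hochberg over 45037 probe sets). In the F test over all groups 12 of 21 member probe sets passed, against 31.8% of all probe sets. The median span between the highest and lowest group mean was 0.93 for members and 0.90 for all probe sets. Smarcd3 had the widest span of the 21, 2.41, above 96.8% of all probe sets, followed by Smarcd2 (1.74, above 90.8%) and Smarca2 (1.47, above 85.0%). Smarcb1 1416045_a_at, the brightest Smarcb1 probe set, spanned 0.46, above 8.9% of all.

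Smarcd3, the subunit linked to heart and skeletal muscle, rose with both forms of MyoD and was higher with ER-MyoD wt at 12 and 24 h. Its 1 probe set, 1418467_at, had a deposited signal of 294 ± 22.4 (SD, n = 3) at 0 h in ER-MyoD wt cells and 1307 ± 163 at 24 h, against 665 ± 82.3 in ER-MyoD RRR and 323 ± 3.88 in empty-retrovirus cells at 24 h. In normalised log2 the 3 ER-MyoD wt arrays read 8.22, 8.39 and 8.40 at 0 h, 8.89, 8.91 and 8.39 at 6 h, 9.39, 9.39 and 9.45 at 12 h, and 10.40, 10.44 and 10.28 at 24 h. The 12 h and 24 h arrays thus lay above every earlier ER-MyoD wt array, while 1 of the 3 arrays at 6 h fell within the 0 h range. ER-MyoD RRR arrays read 8.31, 8.14 and 8.60 at 6 h, 8.56, 8.81 and 8.41 at 12 h, and 9.42, 9.30 and 9.68 at 24 h. Empty-retrovirus arrays read 7.93, 8.24 and 8.36 at 6 h, 7.84, 7.68 and 8.36 at 12 h, and 8.33, 8.39 and 8.39 at 24 h. At 24 h the 3 constructs did not overlap, in the order ER-MyoD wt, ER-MyoD RRR, empty retrovirus. At 6 h ER-MyoD RRR overlapped both of the others.

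The tests followed that order. ER-MyoD wt exceeded empty retrovirus by 0.55 ± 0.17 (SE) at 6 h (limma adjusted p = 0.0392), by 1.45 at 12 h (adjusted p = 2.9e-07) and by 2.01 at 24 h (adjusted p = 2.73e-10). The 24 h difference is a 4.02-fold one. ER-MyoD RRR exceeded empty retrovirus by 0.63 at 12 h (limma adjusted p = 0.0195) and 1.10 at 24 h (adjusted p = 2.24e-05), and at 6 h the difference of 0.17 did not pass (adjusted p = 0.647). ER-MyoD RRR was below ER-MyoD wt by 0.81 at 12 h (log2 difference -0.81, limma adjusted p = 0.0125) and by 0.91 at 24 h (-0.91, adjusted p = 0.00167), and the 6 h difference of -0.38 did not pass (adjusted p = 0.317). Against its own 0 h level ER-MyoD wt was higher by 1.07 at 12 h (adjusted p = 2.78e-05) and 2.04 at 24 h (adjusted p = 1.23e-10), not detectably at 6 h (0.39, adjusted p = 0.153). From 6 to 24 h the level rose by 1.65 in ER-MyoD wt and 1.12 in ER-MyoD RRR, and the 0.19 in empty-retrovirus cells did not pass (limma adjusted p = 0.655). The rise in ER-MyoD RRR differed from that in ER-MyoD wt by -0.53, which did not pass (limma adjusted p = 0.396). The comparisons with 1 control share arrays and are not independent of each other.

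The 6 h call and the 12 h calls that involve ER-MyoD RRR rested on few arrays. At 12 h the differences of ER-MyoD wt from empty retrovirus and from 0 h passed under every alternative. Without ER-MyoD wt 6 h replicate 1 or 2, or empty retrovirus 6 h replicate 1 or 2, the 6 h difference of Smarcd3 from empty retrovirus was 0.43 to 0.58 and did not pass. That 6 h difference also did not pass with the deposited scaling, with no trend in the fit or with only the compared groups fitted. With only the compared groups fitted, the 12 h difference of ER-MyoD RRR from empty retrovirus did not pass either. The 12 h difference of ER-MyoD RRR from empty retrovirus fell to 0.57 without the 3 arrays that stood apart (limma adjusted p = 0.0693) and also did not pass without empty retrovirus 12 h replicate 1 or 2 or ER-MyoD RRR 12 h replicate 1 or 2. The 12 h difference between the MyoD forms did not pass without replicate 1 or 3 of either, or with median centring (-0.79, adjusted p = 0.131). By group mean the order was ER-MyoD wt 24 h (10.38), ER-MyoD RRR 24 h (9.47), ER-MyoD wt 12 h (9.41), ER-MyoD wt 6 h (8.73), ER-MyoD RRR 12 h (8.59), empty 24 h (8.37), ER-MyoD RRR 6 h (8.35), ER-MyoD wt 0 h (8.34), empty 6 h (8.18) and empty 12 h (7.96). Among neighbours in this order the arrays did not overlap between the first and the second place, the third and the fourth, and the fifth and the sixth.

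Smarcd2, a broadly expressed alternative to Smarcd3, was lower at 24 h with both forms of MyoD in its brightest probe set. The brightest of its 3 probe sets, 1448400_a_at, read 10.02, 9.89 and 9.97 at 0 h, 9.62, 9.44 and 9.77 at 6 h, 9.27, 9.20 and 9.84 at 12 h, and 8.10, 8.72 and 7.84 at 24 h in ER-MyoD wt cells. ER-MyoD RRR arrays read 9.996, 10.08 and 9.62 at 6 h, 9.46, 9.74 and 9.71 at 12 h, and 9.03, 8.87 and 8.51 at 24 h. Empty-retrovirus arrays read 9.86, 9.97 and 9.56 at 6 h, 9.64, 10.22 and 9.75 at 12 h, and 9.72, 9.85 and 9.85 at 24 h. At 24 h every array with a MyoD fusion lay below every empty-retrovirus array, but ER-MyoD wt and ER-MyoD RRR overlapped. The 24 h means were 8.22 in ER-MyoD wt, 8.80 in ER-MyoD RRR and 9.81 in the control. The difference from empty retrovirus at 24 h was -1.59 ± 0.20 (SE) in ER-MyoD wt (limma adjusted p = 4.08e-07), or 0.332 of the control level, and -1.01 in ER-MyoD RRR (adjusted p = 0.000572). At 6 h and 12 h neither MyoD form passed against empty retrovirus (ER-MyoD wt -0.19 and -0.44, limma adjusted p = 0.738 and 0.206). Against 0 h ER-MyoD wt fell by 1.74 (log2) at 24 h (adjusted p = 5.59e-08). Its change of -0.52 from 0 to 12 h did not pass (limma adjusted p = 0.0882), although the arrays did not overlap. ER-MyoD RRR fell by 1.10 from 6 to 24 h (adjusted p = 0.000125). ER-MyoD RRR at 24 h was 0.58 above ER-MyoD wt, which did not pass (95% interval 0.18 to 0.99, limma adjusted p = 0.135). That difference became 0.83 without ER-MyoD wt 24 h replicate 2, the highest of its group, and then passed (limma adjusted p = 0.0182).

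The 3 Smarcd2 probe sets disagreed in size. 1448401_at went the same way in ER-MyoD wt at 24 h, by -0.56 against empty retrovirus (limma adjusted p = 0.0287) and by -0.82 against 0 h (adjusted p = 0.000956). The first call was lost without ER-MyoD wt 24 h replicate 1 or 2 or empty retrovirus 24 h replicate 1 or 3. It was also lost with median centring and with no trend in the fit. In ER-MyoD RRR at 24 h 1448401_at did not pass (-0.16, limma adjusted p = 0.68). The dimmer 1426192_at, with group means between 6.95 and 7.43, passed in 0 of the 18 comparisons fitted by limma (0 also at an unadjusted p under 0.05). Its 24 h difference from empty retrovirus was 0.16 in ER-MyoD wt (limma adjusted p = 0.79) and 0.23 in ER-MyoD RRR (adjusted p = 0.702).

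Smarcd1, the third alternative, was lower with ER-MyoD wt. Its brighter probe set 1448913_at read 7.24, 7.29 and 7.36 at 0 h, 6.89, 6.87 and 6.87 at 6 h, 6.96, 6.61 and 7.01 at 12 h, and 6.52, 6.83 and 5.85 at 24 h in ER-MyoD wt cells. ER-MyoD RRR arrays read 7.31, 7.66 and 7.39 at 6 h, 7.07, 7.06 and 7.02 at 12 h, and 7.03, 7.02 and 6.81 at 24 h. Empty-retrovirus arrays read 7.47, 7.58 and 7.44 at 6 h, 7.38, 7.23 and 7.50 at 12 h, and 7.22, 7.55 and 7.37 at 24 h. ER-MyoD wt lay below empty retrovirus without overlap at each time, and at 24 h its 3 arrays were spread by more than those of any other group. The differences were -0.62 ± 0.19 (SE) at 6 h (limma adjusted p = 0.0405), -0.51 at 12 h (adjusted p = 0.0998) and -0.98 at 24 h (adjusted p = 0.000267), so 12 h did not pass. The 6 h call was lost without any 1 of the 6 arrays compared, with median centring and with a pseudocount of 1. Against 0 h ER-MyoD wt fell by 0.90 (log2) at 24 h (limma adjusted p = 0.000577).

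With ER-MyoD RRR Smarcd1 did not pass against empty retrovirus at any time (-0.04, -0.32 and -0.42 at 6, 12 and 24 h, limma adjusted p = 0.941, 0.436 and 0.166), although its arrays lay below the control without overlap at 12 and 24 h. The direct difference between the MyoD forms was 0.57 at 6 h (limma adjusted p = 0.13) and 0.56 at 24 h (95% interval 0.17 to 0.94, adjusted p = 0.139), which did not pass. With the deposited scaling and no quantile normalisation the 24 h value was 0.63 and passed (limma adjusted p = 0.0353), as it did without ER-MyoD wt 24 h replicate 2 (0.77, adjusted p = 0.028). The deposited scaling also brought the 12 h difference of ER-MyoD wt from empty retrovirus to -0.62 (adjusted p = 0.0132). The second Smarcd1 probe set, 1420240_at, exceeded the array median in 3 of 30 arrays and changed only from 6 to 24 h in ER-MyoD RRR (-1.14, limma adjusted p = 0.0397). That call was lost in 8 of its 14 alternatives, 5 of them with a single array left out.

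The balance among Smarcd genes was measured within each array, as the log2 level of 1 subunit minus that of another. It also changes when only 1 of the genes moves, and RNA levels do not show which subunits the complexes hold. Such a difference between probe sets has no absolute meaning, and only its change between groups is compared. In ER-MyoD wt Smarcd3 minus Smarcd1 started from 1.04 ± 0.06 (SD, n = 3) at 0 h and reached 1.85 ± 0.29 at 6 h, 2.55 ± 0.20 at 12 h and 3.98 ± 0.42 at 24 h. ER-MyoD RRR gave 0.90 ± 0.38, then 1.55 ± 0.19, then 2.51 ± 0.31 over the last 3 of these times. Empty-retrovirus cells gave 0.68 ± 0.23, then 0.59 ± 0.24, then 0.99 ± 0.14. The ER-MyoD wt arrays lay above those of both other constructs without overlap at each of the 3 times, while ER-MyoD RRR overlapped empty retrovirus at 6 h only. Over the 9 arrays per construct the gap between ER-MyoD wt and empty retrovirus was 2.04 (exact permutation p = 0.00025, the smallest possible, two-sided, labels permuted within time; adjusted over 12 tests 0.0015). Between ER-MyoD RRR and empty retrovirus it was 0.90 (exact permutation, adjusted p = 0.0024), and ER-MyoD RRR was below ER-MyoD wt by 1.14 (difference -1.14, exact permutation, adjusted p = 0.0015). At a single time 3 arrays face 3, so single times are given as values: the gap of ER-MyoD wt to empty retrovirus was 1.17, 1.96 and 2.99 at 6, 12 and 24 h.

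Smarcd3 minus Smarcd2 changed sign in both MyoD constructs. In ER-MyoD wt it was -1.62 ± 0.16 (SD, n = 3) at 0 h, -0.88 ± 0.45 at 6 h, -0.03 ± 0.32 at 12 h and 2.16 ± 0.38 at 24 h. ER-MyoD RRR gave -1.55 ± 0.48 at 6 h, -1.04 ± 0.23 at 12 h and 0.67 ± 0.44 at 24 h. Empty-retrovirus cells gave -1.62 ± 0.38, then -1.91 ± 0.58, then -1.44 ± 0.04. The zero crossing itself is not interpretable across probe sets, but the 3.78 rise of ER-MyoD wt from 0 to 24 h had no overlap between arrays. The gap of ER-MyoD wt to empty retrovirus was 2.07 over all times (exact permutation, adjusted p = 0.0015), that of ER-MyoD RRR 1.02 (adjusted p = 0.0115), and ER-MyoD RRR differed from ER-MyoD wt by -1.06 (adjusted p = 0.0015). Smarcd1 minus Smarcd2 differed between no pair of constructs over all times (0.04, 0.12 and 0.08, exact permutation, adjusted p = 0.826, 0.444 and 0.444). At 24 h alone its gap to empty retrovirus was 0.61 in ER-MyoD wt and 0.58 in ER-MyoD RRR, both without overlap, while at 6 h that of ER-MyoD wt was -0.43, also without overlap.

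Muscle and fibroblast markers also differed between the constructs at 24 h. The summed deposited signal of 8 muscle markers (Myog, Tnnt2, Actc1, Chrna1, Chrng, Mymk, Tnni1, Mylpf) was 46350 to 54950 in ER-MyoD wt, 31970 to 35990 in ER-MyoD RRR and 112 to 175 in empty-retrovirus cells at 24 h. All 8 exceeded the array median at 24 h in both MyoD constructs and 0 did so in empty-retrovirus cells. The 7 fibroblast markers summed to 17270 to 24780, 29040 to 35100 and 36940 to 44890 in the same groups. In bulk RNA a smaller share of cells with a subunit and less of it per cell cannot be told apart, and the part of marker shifts in the subunit changes was not tested. Over the 10 group means Smarcd3 had a Pearson r of -0.92 with Smarcd1 and -0.95 with Smarcd2, and Smarcd1 had 0.86 with Smarcd2, as a description of groups that share construct and time.

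Genes with the pattern most like each Smarcd gene were named by their Pearson r over the 10 group means among 8801 genes. For Smarcd3 they were Obsl1 (0.986), a cytoskeletal protein related to obscurin, Sbk1 (0.986), a kinase, Usp20 (0.983), a deubiquitinase, Hes6 (0.982), a transcriptional regulator, and Srp68 (0.973), a subunit of the signal recognition particle. For Smarcd2 they were Tkt (0.989), the pentose phosphate enzyme transketolase, Kif1c (0.983), a kinesin, Arrb2 (0.974), an arrestin, Cfap20 (0.974) and Ptprf (0.971), a receptor phosphatase. For Smarcd1 they were Pdcd6 (0.971), a calcium-binding protein, Unc119b (0.970), Ifnz (0.952), Ctsk (0.950), the protease cathepsin K, and Zfp239 (0.947), a zinc finger protein.

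Between the ATPases, Smarca4 rose with ER-MyoD wt and Smarca2 rose in empty-retrovirus cells. The brighter Smarca4 probe set, 1426804_at, read 10.29, 10.29 and 10.46 at 0 h, 10.27, 10.07 and 10.24 at 6 h, 10.70, 10.78 and 10.49 at 12 h, and 11.16, 11.23 and 11.21 at 24 h in ER-MyoD wt. ER-MyoD RRR arrays read 10.38, 10.29 and 10.61 at 6 h, 10.59, 10.45 and 10.58 at 12 h, and 11.06, 10.89 and 10.71 at 24 h. Empty-retrovirus arrays read 10.57, 10.70 and 10.56 at 6 h, 10.50, 10.41 and 10.58 at 12 h, and 10.57, 10.17 and 10.60 at 24 h. All 3 constructs were apart without overlap at 24 h, again in the order ER-MyoD wt (mean 11.20), ER-MyoD RRR (10.89), empty retrovirus (10.44). Smarca4 was higher than in empty-retrovirus cells at 24 h by 0.76 ± 0.12 (SE) in ER-MyoD wt (limma adjusted p = 1.46e-05) and by 0.44 in ER-MyoD RRR (adjusted p = 0.0108). The direct difference of -0.32 between the MyoD forms did not pass (95% interval -0.56 to -0.08, limma adjusted p = 0.198).

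The 6 h difference of Smarca4 between ER-MyoD wt and empty retrovirus depended on the scaling. It was -0.42 (limma adjusted p = 0.0233), but -0.25 with the deposited scaling (adjusted p = 0.306) and -0.05 with median centring (adjusted p = 0.938). It also did not pass with no trend in the fit, or without empty retrovirus 6 h replicate 1 or 2 or ER-MyoD wt 6 h replicate 2. From 0 to 24 h ER-MyoD wt rose by 0.85 (adjusted p = 1.63e-06), which passed under every alternative. From 6 to 24 h ER-MyoD RRR rose by 0.46 (adjusted p = 0.0058), but by 0.03 with median centring (adjusted p = 0.947). That rise also did not pass with the deposited scaling, with only the compared groups fitted or without ER-MyoD RRR 24 h replicate 1. The ER-MyoD RRR difference at 24 h did not pass with median centring (0.39, limma adjusted p = 0.236) or without empty retrovirus 24 h replicate 2 (0.30, adjusted p = 0.124) or ER-MyoD RRR 24 h replicate 1 (0.36, adjusted p = 0.08). It also did not pass with only the compared groups fitted. The second probe set, 1426805_at, did not pass against empty retrovirus at 6 h in ER-MyoD wt (-0.48, limma adjusted p = 0.435). At 24 h it was higher by 0.98 in ER-MyoD wt (adjusted p = 0.0147) and 0.90 in ER-MyoD RRR (adjusted p = 0.0352). Those 24 h calls were lost in ER-MyoD wt without its replicate 1 or 3 or empty retrovirus 24 h replicate 3, and in ER-MyoD RRR without its replicate 1 or 2 or empty retrovirus 24 h replicate 2 or 3. The ER-MyoD RRR call was also lost with the deposited scaling, with median centring, with no trend in the fit and with only the compared groups fitted.

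Smarca2 probe set 1430526_a_at read 6.69, 6.39 and 6.34 at 0 h and 7.04, 6.94 and 7.13 at 24 h in ER-MyoD wt, and 6.81, 7.16 and 6.99 at 24 h in ER-MyoD RRR. In empty-retrovirus cells it read 6.86, 7.02 and 6.63 at 6 h, 7.44, 7.53 and 7.01 at 12 h, and 7.94, 7.88 and 8.003 at 24 h. The 3 empty-retrovirus arrays at 24 h were the highest of all groups, without overlap with any. Their mean was 7.94, against 7.03 in ER-MyoD wt and 6.99 in ER-MyoD RRR. At that time Smarca2 was lower than in empty-retrovirus cells by a log2 difference of -0.91 in ER-MyoD wt and -0.96 in ER-MyoD RRR (limma adjusted p = 0.000188 for each). This gap came with a rise of 1.11 from 6 to 24 h in empty-retrovirus cells (limma adjusted p = 3.17e-05) and not with a fall in ER-MyoD wt. At 24 h ER-MyoD wt was 0.56 above its 0 h level (limma adjusted p = 0.0171). That call was lost without ER-MyoD wt 0 h replicate 2 or 3 or 24 h replicate 3. It was also lost without the 3 arrays that stood apart and with only the compared groups fitted. The MyoD forms differed by -0.05 at 24 h (95% interval -0.39 to 0.30). The other Smarca2 probe set, 1452333_at, exceeded the array median in 10 of 30 arrays and passed in 0 of the 18 limma comparisons (0 also at an unadjusted p under 0.05).

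Within arrays of ER-MyoD wt, Smarca4 minus Smarca2 was 3.87 ± 0.26 (SD, n = 3) at 0 h, 3.42 ± 0.13 at 6 h, 3.84 ± 0.07 at 12 h and 4.17 ± 0.11 at 24 h. ER-MyoD RRR gave 3.65 ± 0.21, then 3.49 ± 0.06, then 3.90 ± 0.30 from 6 h on. Empty-retrovirus cells gave 3.77 ± 0.14, then 3.17 ± 0.36, then 2.503 ± 0.19. The gap to empty retrovirus over all times was 0.66 for ER-MyoD wt and 0.53 for ER-MyoD RRR (exact permutation, adjusted p = 0.0349 for each), and that between the MyoD forms was -0.13 (adjusted p = 0.292). With the replicate number as a block neither gap to empty retrovirus passed (permutation, adjusted p = 0.105 for each). Neither gap passed without empty retrovirus 12 h replicate 1 (0.64 and 0.52, exact permutation, adjusted p = 0.0559 for each) or replicate 2 (0.61 and 0.49, adjusted p = 0.0613 and 0.0641), and that of ER-MyoD RRR also not without ER-MyoD RRR 6 h replicate 3 (0.49, adjusted p = 0.0604).

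The core subunits follow. For Smarcc1, a scaffold of the complex, the brightest of 4 probe sets, 1455246_at, read 9.03, 9.27 and 9.40 at 0 h and 10.53, 10.09 and 10.20 at 24 h in ER-MyoD wt. At 24 h it read 9.55, 9.71 and 10.15 in ER-MyoD RRR and 9.64, 9.42 and 9.69 in empty-retrovirus cells. ER-MyoD wt was above empty retrovirus without overlap, by 0.69 ± 0.19 (SE, limma adjusted p = 0.0096, not passed without ER-MyoD wt 24 h replicate 1 or empty retrovirus 24 h replicate 2), and 1.04 above 0 h (adjusted p = 0.000102). ER-MyoD RRR overlapped both and did not pass against empty retrovirus (0.22, adjusted p = 0.569) or ER-MyoD wt (-0.47, adjusted p = 0.248). The nearly as bright 1423416_at did not repeat this: it passed only for a fall from 6 to 24 h in empty-retrovirus cells (-0.60, limma adjusted p = 0.0129, not passed without empty retrovirus 6 h replicate 1 or 24 h replicate 2 or 3). 1423417_at passed in 0 of 18 limma comparisons (4 at an unadjusted p under 0.05), and 1459824_at exceeded the array median in 0 of 30 arrays.

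Smarcc2, the partner of Smarcc1, was lower early in ER-MyoD wt. Its 1 probe set, 1428382_at, read 8.54, 8.63 and 8.74 at 6 h in ER-MyoD wt, 8.41, 9.11 and 8.97 in ER-MyoD RRR and 8.95, 9.29 and 9.52 in empty-retrovirus cells. ER-MyoD wt differed from empty retrovirus by -0.62 at 6 h (limma adjusted p = 0.0293) without overlap. That call was lost with median centring, with no trend in the fit and without ER-MyoD wt 6 h replicate 1 or 2 or empty retrovirus 6 h replicate 2 or 3. By 24 h the difference was 0.01 (adjusted p = 0.984), after rises from 6 h of 0.73 in ER-MyoD wt and 0.74 in ER-MyoD RRR. Both rises passed, though not with median centring. The second also did not pass without ER-MyoD RRR 6 h replicate 1 or with only the compared groups fitted.

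Smarcb1, the small core subunit known as a tumour suppressor, had 1 construct difference. Its brightest probe set, 1416045_a_at, read 10.36, 10.14 and 10.24 at 6 h in ER-MyoD RRR, 10.10, 9.96 and 9.74 in ER-MyoD wt and 9.77, 9.87 and 9.74 in empty-retrovirus cells. ER-MyoD RRR was above both others without overlap, by 0.46 against empty retrovirus (limma adjusted p = 0.00498) and by 0.32 against ER-MyoD wt, which did not pass (adjusted p = 0.141). The call against empty retrovirus was lost with only the compared groups fitted. In ER-MyoD RRR the level then fell by 0.36 (log2) to 24 h (limma adjusted p = 0.0171). That call was lost without ER-MyoD RRR 6 h replicate 1 or 24 h replicate 2 or 3. It was also lost with no trend in the fit and with only the compared groups fitted. The dimmer 1435856_x_at fell by 1.21 from 0 to 24 h in ER-MyoD wt (limma adjusted p = 0.0343) and by 1.30 from 6 to 24 h in ER-MyoD RRR (adjusted p = 0.0292). Each of these was lost without single arrays, ER-MyoD wt 0 h or 24 h replicate 1 or 3 for the first, and ER-MyoD RRR 6 h replicate 3 or 24 h replicate 2 or 3 for the second. The first was also lost with no trend in the fit. 1456938_at exceeded the array median in 0 of 30 arrays.

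Smarce1, which carries an HMG-type DNA-binding domain, had probe sets that disagreed. The brightest, 1422676_at, read 8.59, 8.85 and 8.53 at 0 h, below every other array of the series. ER-MyoD wt exceeded that level by 0.56, 0.42 and 0.63 at 6, 12 and 24 h (limma adjusted p = 0.0037, 0.0295 and 0.000479). The 12 h call was lost without replicate 1 or 3 of either time, with no trend in the fit and with only the compared groups fitted. The calls at 12 and 24 h were lost with median centring. With no 0 h arrays of empty retrovirus analysed here, this rise cannot be told apart from that of medium and hormone. At 12 h the control was higher than ER-MyoD wt (-0.47, limma adjusted p = 0.0184). That call was lost with the deposited scaling, with median centring and with only the compared groups fitted. It was also lost without empty retrovirus 12 h replicate 2 or 3 or ER-MyoD wt 12 h replicate 2. The other probe set above background, 1422675_at, fell by 0.70 from 6 to 24 h in empty-retrovirus cells (difference -0.70, limma adjusted p = 0.00119, not passed with median centring). It did not repeat the rise from 0 h, with differences of 0.28, 0.01 and 0.10 at 6, 12 and 24 h (limma adjusted p = 0.272, 0.989 and 0.726). 1430822_at exceeded the array median in 0 of 30 arrays.

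Counted over all 21 probe sets, ER-MyoD wt differed from empty retrovirus in 4 at 6 h, 2 at 12 h and 8 at 24 h, where 7.33%, 9.05% and 16.8% of all probe sets passed. At 24 h 4 were higher (7.33% of all were) and 4 lower (9.46%). The 8 at 24 h, 38.1% of the members, belonged to 6 genes: Smarcd3, Smarca4 and Smarcc1 higher, Smarcd1, Smarcd2 and Smarca2 lower. At 6 h the count fell to 0 without ER-MyoD wt 6 h replicate 2 or empty retrovirus 6 h replicate 2, to 1 without replicate 1 of either, and to 2 without empty retrovirus 6 h replicate 3, and it was 1 with median centring. Without ER-MyoD wt 24 h replicate 1 the number at 24 h was 5. The 13 that did not pass at 24 h lay between -0.75 and 0.59. ER-MyoD RRR differed from empty retrovirus in 1 at 6 h (Smarcb1 higher), 1 at 12 h (Smarcd3 higher) and 5 at 24 h, against 8.69%, 5.4% and 11.9% of all probe sets. Of the 5, 3 were higher (5.15% of all) and 2 lower (6.77%), the other 16 lay between -0.97 and 0.46, and the count was 3 without ER-MyoD RRR 24 h replicate 1 or empty retrovirus 24 h replicate 2. With 1 probe set for every gene, 4 of 9 passed at 24 h, against 18.9% of all genes, and with that signal filter 5 of 17, against 19.2%.

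Between ER-MyoD RRR and ER-MyoD wt, Smarcd3 was the 1 member that passed, lower at 12 and at 24 h, against 0.657% and 2.56% of all probe sets. The other 20 lay between -0.58 and 0.58 at 24 h, where the count was 3 without ER-MyoD wt 24 h replicate 2. At 6 h 0 of 21 passed (limma), against 1.68% of all, and 4 had an unadjusted p under 0.05. From 0 h ER-MyoD wt changed in 1 member probe set at 6 h, 2 at 12 h and 9 at 24 h, against 10.5%, 11.8% and 20.4% of all, and of the 9, 5 were higher (10.1% of all) and 4 lower (10.3%). Their numbers became 2 at 6 h without ER-MyoD wt 6 h replicate 3, and 1 at 12 h without ER-MyoD wt 0 h replicate 1 or 3 or 12 h replicate 1. With 1 probe set for every gene, 8 of 9 changed from 0 to 24 h, against 30.7% of all genes, and with the signal filter 10 of 17, against 31.8%. From 6 to 24 h, 6 changed in ER-MyoD wt, 7 in ER-MyoD RRR and 3 in empty-retrovirus cells, against 14.8%, 15% and 9.01%, and the 7 became 4 without ER-MyoD RRR 24 h replicate 2 or when only the compared groups were fitted. The gap to empty retrovirus itself changed between 6 and 24 h in 6 for ER-MyoD wt and 4 for ER-MyoD RRR, against 8.07% and 5.49%, and that between the MyoD forms in 0 by limma, against 0.815% (3 members at an unadjusted p under 0.05). The 4 became 2 without ER-MyoD RRR 24 h replicate 1 and 8 with the replicate number as a block. The median difference of the 21 at 24 h was 0.06 for ER-MyoD wt against empty retrovirus and 0.15 for ER-MyoD RRR, beside 0.02 and 0.01 over all probe sets.

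Other subunits of SWI/SNF complexes passed in both directions, at shares near those of all genes taken with 1 probe set each. Of 21 such genes (1 probe set each) 4 were higher and 2 lower in ER-MyoD wt than in empty-retrovirus cells at 24 h, with a median of 0.04, against 7.33% and 9.46% of all probe sets. In ER-MyoD RRR 2 were higher and 1 lower (median -0.15), against 5.15% and 6.77%. With 1 probe set for every gene, 25.3% and 18.9% of all genes passed in these comparisons in either direction. The genes named next were picked from the list for the smallest p in any construct comparison. Bcl7a, an accessory subunit, was higher with ER-MyoD wt by 1.11, 1.62 and 1.47 at 6, 12 and 24 h and with ER-MyoD RRR by 0.69, 1.17 and 1.43 (limma adjusted p from 4.63e-09 to 0.00242). Ss18, another accessory subunit, was higher by 0.995 with ER-MyoD wt (limma adjusted p = 3.53e-08) and 0.49 with ER-MyoD RRR (adjusted p = 0.00179) at 24 h. Like Smarcd3, Ss18 had a lower level with ER-MyoD RRR than with ER-MyoD wt at 24 h (-0.50, limma adjusted p = 0.00668), and also at 6 h (-0.60, adjusted p = 0.00242). Bcl7c, a relative of Bcl7a, went the other way at 24 h (-1.01 in ER-MyoD wt, limma adjusted p = 7.4e-06, and -0.61 in ER-MyoD RRR, adjusted p = 0.00562). Pbrm1, a subunit of the PBAF form, was lower at 6 h in ER-MyoD RRR (-0.87, limma adjusted p = 0.00037).

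ATPases of other remodelling families leaned lower against empty retrovirus and higher against 0 h. Of 20 genes 2 were higher and 6 lower in ER-MyoD wt than in empty-retrovirus cells at 24 h (median -0.29), against 7.33% and 9.46% of all probe sets, and in ER-MyoD RRR at 6 h 0 were higher and 7 lower (median -0.39), against 4.05% and 4.65%. These genes too had 1 probe set each. With 1 probe set for every gene, 25.3% and 13.8% of all genes passed in these comparisons in either direction. Against 0 h ER-MyoD wt had 7 higher and 0 lower at 6 h (6.08% and 4.43% of all), 8 and 0 at 12 h (6.35% and 5.41%), and 10 and 1 at 24 h (10.1% and 10.3%), with medians of 0.32, 0.49 and 0.60. With 1 probe set for every gene, 17.7%, 20.3% and 30.7% of all genes passed against 0 h in either direction. Chd3, of the NuRD complex, differed by -1.25 in ER-MyoD wt (limma adjusted p = 1.07e-06) and -1.01 in ER-MyoD RRR (adjusted p = 5.21e-05) at 24 h. Hells (-1.37), Chd2 (-1.09) and Atrx (-1.70) were lower in ER-MyoD RRR at 6 h, the group that held the array with the highest 3'/5' ratios, whose part in these values was not tested.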

How the data were processed

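The deposited values are intensity, 1 linear signal per probe set and array, in a table of the authors whose arrays share a trimmed mean of 150. The summarising software and its settings are, in the sources used here, not given. Per the labels, biotin-labelled total RNA was hybridised, and groups and replicate numbers were read from the titles. Control probe sets (64 of 45101) took no part. The annotation gave 1 symbol to 34945 of the remaining 45037, several to 932 and none to 9160.

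Signals were quantile normalised and taken as log2(signal + 16). One mean per group was fitted over 30 arrays with limma 3.58.1 in R 4.3.3 (trended eBayes, 20 residual degrees of freedom, two-sided, Benjamini-Hochberg over all probe sets), for 18 comparisons. Within-array differences used the brightest probe set per gene and an exact permutation test within time (8000 regroupings, 12 tests). Scripts were tested on simulated data. The number of arrays limits the precision.

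The members and gene lists were chosen with earlier results of these data known. Named genes were all 9 members, Myod1 and Myog, up to 4 genes per other list with the smallest p in any construct comparison, and for each Smarcd gene the 5 genes with the highest Pearson r over group means, among those with a highest group mean of at least 7 and a span of at least 0.5. Alternatives were other pseudocounts (1, 64), no or median normalisation, a filter (signal of 50 in 3 arrays), a replicate block, no trend, fits of the compared groups alone, 1 probe set per gene, each array left out, and, chosen after seeing the data, 3 arrays left out together.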

Additional observations from a re-analysis of the deposited data

Results flagged for a closer look

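Tested as an interaction in limma, 6 of 21 member probe sets had a difference between ER-MyoD wt and empty retrovirus at 24 h that departed from the one at 6 h (8.07% of all probe sets did), and 4 had one between ER-MyoD RRR and empty retrovirus (5.49%). Between ER-MyoD RRR and ER-MyoD wt 0 of 21 did (0.815% of all, and 3 members at an unadjusted p under 0.05). The gap of Smarcd3 to empty retrovirus widened by 1.46 in ER-MyoD wt (limma adjusted p = 7.44e-05) and by 0.93 in ER-MyoD RRR (adjusted p = 0.0148, not passed with median centring or without ER-MyoD RRR 24 h replicate 3). That of Smarcd2 1448400_a_at moved by -1.40 and -1.11, the second not passed without ER-MyoD RRR 24 h replicate 3. Smarca4 1426804_at moved by 1.18 and 0.63 (log2), and Smarca4 1426805_at by 1.45 in ER-MyoD wt, a call lost in 3 of its 21 alternatives. The second value of 1426804_at did not pass in 9 of its 22 alternatives. Smarca2 1430526_a_at moved by -0.85 and -0.89, with the rise in empty-retrovirus cells, and each call was lost in 5 of its 22 alternatives, the deposited scaling among them. Smarcc1 1455246_at moved by 0.89 in ER-MyoD wt, a call lost in 11 of its 22 alternatives. The 2 sets of gaps share the empty-retrovirus arrays.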

How the results depend on the processing

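Of 61 member differences that passed, 27 passed under each alternative run for them and 0 changed direction. The 10 tests of Smarcd pairs and of Smarca4 minus Smarca2 between MyoD forms stayed on their side of the threshold under all alternatives. The gap of Smarca4 minus Smarca2 to empty retrovirus (0.66 and 0.53) had an adjusted p of 0.105 in each MyoD form with the replicate block. It was 0.49 in ER-MyoD RRR with the mean of all probe sets (exact permutation, adjusted p = 0.0859) and 0.66 in ER-MyoD wt without the 3 arrays that stood apart (adjusted p = 0.0518). Whether the replicate numbers pair the arrays was not tested. Deviations of arrays from their group means correlated above 0.1 in 16 of 135 same-numbered pairs and 13 of 270 others, with medians of 0.02 and -0.01. With the replicate block the change from 6 to 24 h in the gap of ER-MyoD RRR to empty retrovirus was called in 8 members, not 4. The counts by family were then 14, 8, 2, 14 and 32. Those 5 counts, in the order ER-MyoD wt against empty, ER-MyoD RRR against empty, ER-MyoD RRR against ER-MyoD wt, ER-MyoD wt against 0 h, and 6 to 24 h with its interactions, were 14, 7, 2, 12 and 26 as reported. The third was 1 with median centring and the second was 3 when only the compared groups were fitted, and the cause was not tested. With single arrays left out, they ranged over 10 to 15, 5 to 7, 1 to 4, 9 to 14 and 22 to 29. The third was 1 without replicate 1 or 3 of either MyoD form at 12 h and 4 without ER-MyoD wt 24 h replicate 2. Left-out ranges for ER-MyoD wt against empty, ER-MyoD RRR against empty and ER-MyoD RRR against ER-MyoD wt were 1.96 to 2.10, 0.84 to 0.97 and -1.20 to -1.06 for Smarcd3 minus Smarcd1, 1.97 to 2.16, 0.91 to 1.10 and -1.15 to -0.99 for Smarcd3 minus Smarcd2, -0.05 to 0.08, 0.04 to 0.16 and 0.04 to 0.13 for Smarcd1 minus Smarcd2, and 0.61 to 0.73, 0.48 to 0.60 and -0.19 to -0.10 for Smarca4 minus Smarca2. Median centring moved the median of all probe sets by -0.11 from 6 to 24 h in ER-MyoD RRR, and the deposited scaling by 0.13. The share of higher calls over all probe sets moved with median centring from 52.5% to 71.3% for ER-MyoD wt against empty at 6 h and from 61.4% to 36.9% for the MyoD forms compared at 24 h. Of 21 members 4 left the test under the signal filter, so that alternative gives no value for them.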
